A study of Mus musculus with 14 samples.

Results

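A set of 9 complement genes was followed through RNA sequencing of mouse intervertebral discs from a genetic and a diet-and-toxin model of type 2 diabetes. They were picked by gene symbol out of 55487 genes in the count table, with earlier results of these data known. They comprise the 3 chains of C1q (C1qa, C1qb, C1qc), C4b, C3, factor D (Cfd), clusterin (Clu) and the anaphylatoxin receptors C3ar1 and C5ar1. All 9 were among the 16915 genes with more than 1 CPM (counts-per-million, scaled by library size) in at least 3 of the 14 libraries, the set in which tests were run. The libraries came from male mice, 1 library per mouse, with the tail discs of an animal combined. Homozygous db/db mice (n = 3) carry a leptin receptor mutation in both Lepr copies and heterozygous db/+ littermates (n = 3) in a single copy, and these animals were 12 weeks old. STZ-HFD mice (n = 4) were C57BL/6J animals, 12 weeks old at the start, that ate a high-fat diet for 4 to 6 weeks, received 1 injection of 100 mg/kg streptozotocin, a toxin of pancreatic beta cells, and stayed on the diet for 12 more weeks. Con+Veh mice (n = 4), labelled wild-type, were also C57BL/6J animals, 12 weeks old at the start, that ate standard chow and received the citrate vehicle. The Lepr mutation is present in the whole animal, and diet and toxin were always given together. The db and STZ cohorts differ in age at collection, so tests compare groups within a cohort and levels across cohorts are a description.

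Complement is a cascade of plasma proteins that tags targets for removal. C1q recognises antibody and debris and starts the classical route through C4, while factor D drives the alternative route, and both converge on cleavage of C3. Cleavage of C3 and C5 releases the peptides C3a and C5a, which act on myeloid cells through the receptors encoded by C3ar1 and C5ar1. Clusterin is a secreted chaperone that restrains the terminal complex. Macrophages are a main source of C1q, and adipocytes of factor D. In healthy discs the nucleus has few blood vessels and few resident immune cells.

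Library totals ran from 16076908 to 58943169 counts, and ribosomal RNA genes took 28.06% to 60.25% of them. STZ-HFD 1 had the lowest total and a scaling factor (TMM) of 1.58, beside 0.742, 0.693 and 0.741 in STZ-HFD 2, STZ-HFD 3 and STZ-HFD 4. Within its group this library was lowest for C1qa, C1qb, C1qc, C4b, C3 and C5ar1 and highest for Cfd. The sums of 10 disc matrix genes, among them Acan and Col2a1, were 16999 to 46272 CPM in the db cohort and 1649 to 6632 CPM in the STZ cohort, so the labelled tissue was present in every library but at unlike strength. Sums of 10 skeletal muscle genes were 4857 to 9418 CPM in db/+, 3094 to 5160 in db/db, 8875 to 11481 in Con+Veh and 9204 to 25209 in STZ-HFD. Of these 10, 1 was called lower in db/db (list median log2 fold change -0.89) and 4 higher in STZ-HFD (1.05), and 4 were called higher in the difference between the models (2.03). In discs taken whole, fewer cells of a type and less RNA per cell cannot be told apart. In the fit each library had a weight set by how far it departed from its group, from 0.275 (Con+Veh 1) to 3.05 (Con+Veh 3). Con+Veh 3, Con+Veh 4, STZ-HFD 3 and STZ-HFD 4 had weights of 1.52 or more, and those of Con+Veh 1, Con+Veh 2, STZ-HFD 1 and STZ-HFD 2 were 0.688 or less.

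The 3 C1q genes sit side by side on the minus strand of chromosome 4 (GRCm38), C1qb at 136880129 to 136886187, C1qc at 136889804 to 136893065 and C1qa at 136895917 to 136898803, with 3616 and 2851 bases between neighbours. C3ar1 lies on the minus strand of chromosome 6 (122847138 to 122856161) and C5ar1 on that of chromosome 7 (16246743 to 16259540). C1qb and C1qc are neighbours that were both called lower in STZ-HFD, and of the 9 genes the 2 receptors differed most between the models. The sequences just upstream of these 4 genes are therefore shown. They are the RefSeq promoter windows of GRCm38.p6 on the minus strand, 250 bases before the RefSeq gene start. Any bases inside the gene's annotated body were left out (151 for C1qc, 4 for C3ar1 and 202 for C5ar1). Capitals mark GAGGAA, the core letters bound by the myeloid factor PU.1, or its reverse complement TTCCTC.
C1qb, chr4:136886201-136886450: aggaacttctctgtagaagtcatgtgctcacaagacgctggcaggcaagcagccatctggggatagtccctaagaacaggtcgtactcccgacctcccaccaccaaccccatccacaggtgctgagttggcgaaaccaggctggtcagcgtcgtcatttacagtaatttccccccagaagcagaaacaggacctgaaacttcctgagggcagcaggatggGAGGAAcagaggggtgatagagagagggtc
C1qc, chr4:136893066-136893164: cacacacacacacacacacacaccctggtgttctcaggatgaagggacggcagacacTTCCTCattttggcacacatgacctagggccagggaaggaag
C3ar1, chr6:122856162-122856407: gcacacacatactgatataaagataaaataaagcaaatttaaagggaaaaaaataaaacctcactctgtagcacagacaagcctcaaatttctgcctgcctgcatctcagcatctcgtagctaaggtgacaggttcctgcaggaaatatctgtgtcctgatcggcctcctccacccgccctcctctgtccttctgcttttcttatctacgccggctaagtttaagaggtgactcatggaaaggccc
C5ar1, chr7:16259541-16259588: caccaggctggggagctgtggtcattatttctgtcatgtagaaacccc
Windows were found for 6 of the 9 genes, those of C1qa, C4b and Clu being the others. A set of 4 motifs was searched on both strands of the full 250 bases. Positions count back from the RefSeq gene start, at the end of the full window, and not from the end of the trimmed sequences. GAGGAA began 30 bases before the gene start in C1qb, on the gene's strand, and 193 bases before it in C1qc, on the other strand, and was held by 23.3% of the 32851 windows of the same length. TTGCNNAA, letters bound by C/EBP factors, stood 45 bases before the start of C3 and in 9.56% of all windows. TATAAA stood 235 bases before the start of C3ar1 and in 12.4% of all windows, and a pair of GAAA runs spaced by any 2 bases, which interferon-regulated genes often carry, was in none of the 6 and in 2.98% of all. C5ar1 and Cfd held none of the 4 motifs in this window. The motifs share no letters with each other at these places and mark a match of letters, not a bound site.

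The most distinct pattern belonged to C5ar1, the receptor for C5a. Its levels were 58.8, 47.9 and 46.3 CPM in the db/db libraries against 21.7, 23.3 and 18.6 CPM in db/+. They were 31.3, 27.5, 38.1 and 33.9 CPM in Con+Veh against 9.78, 20.2, 19.8 and 16.6 CPM in STZ-HFD. Every db/db library was above every db/+ library, and every STZ-HFD library below every Con+Veh library. The change was 2.37-fold higher in db/db (log2 fold change 1.25, SE 0.21, adjusted p = 0.0127) and 2.02-fold lower in STZ-HFD (log2 fold change -1.02, SE 0.19, adjusted p = 0.0104), both by limma with quality weights and Benjamini-Hochberg adjustment over all 16915 genes. Genes were called at an adjusted p under 0.05 and a log2 fold change of at least 1 in size. In order of group mean, C5ar1 ran from db/db at 51.0 ± 6.81 CPM (SD, n = 3) through Con+Veh at 32.7 ± 4.47 (n = 4) and db/+ at 21.2 ± 2.40 (n = 3) to STZ-HFD at 16.6 ± 4.80 (n = 4). The last 2 groups in that order overlapped, and the others did not.

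The change of C5ar1 differed between the models by -2.26 on the log2 scale (SE 0.28, limma adjusted p = 0.00230), STZ-HFD minus db. That difference kept its call with any 1 of the 14 libraries left out, its value running from -2.38 to -2.12. In db/db the call was lost without db/db 1 (log2 fold change 1.14, limma adjusted p = 0.0576). In STZ-HFD the fold sat at the minimum of 1. It was lost without Con+Veh 3 (-0.87, adjusted p = 0.294), Con+Veh 4 (-0.99, 0.120), STZ-HFD 3 (-1.13, 0.0769) or STZ-HFD 4 (-0.98, 0.0559), and without STZ-HFD 1 by the fold alone (-0.92, 0.0124), all by limma.

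**Figure D1:**
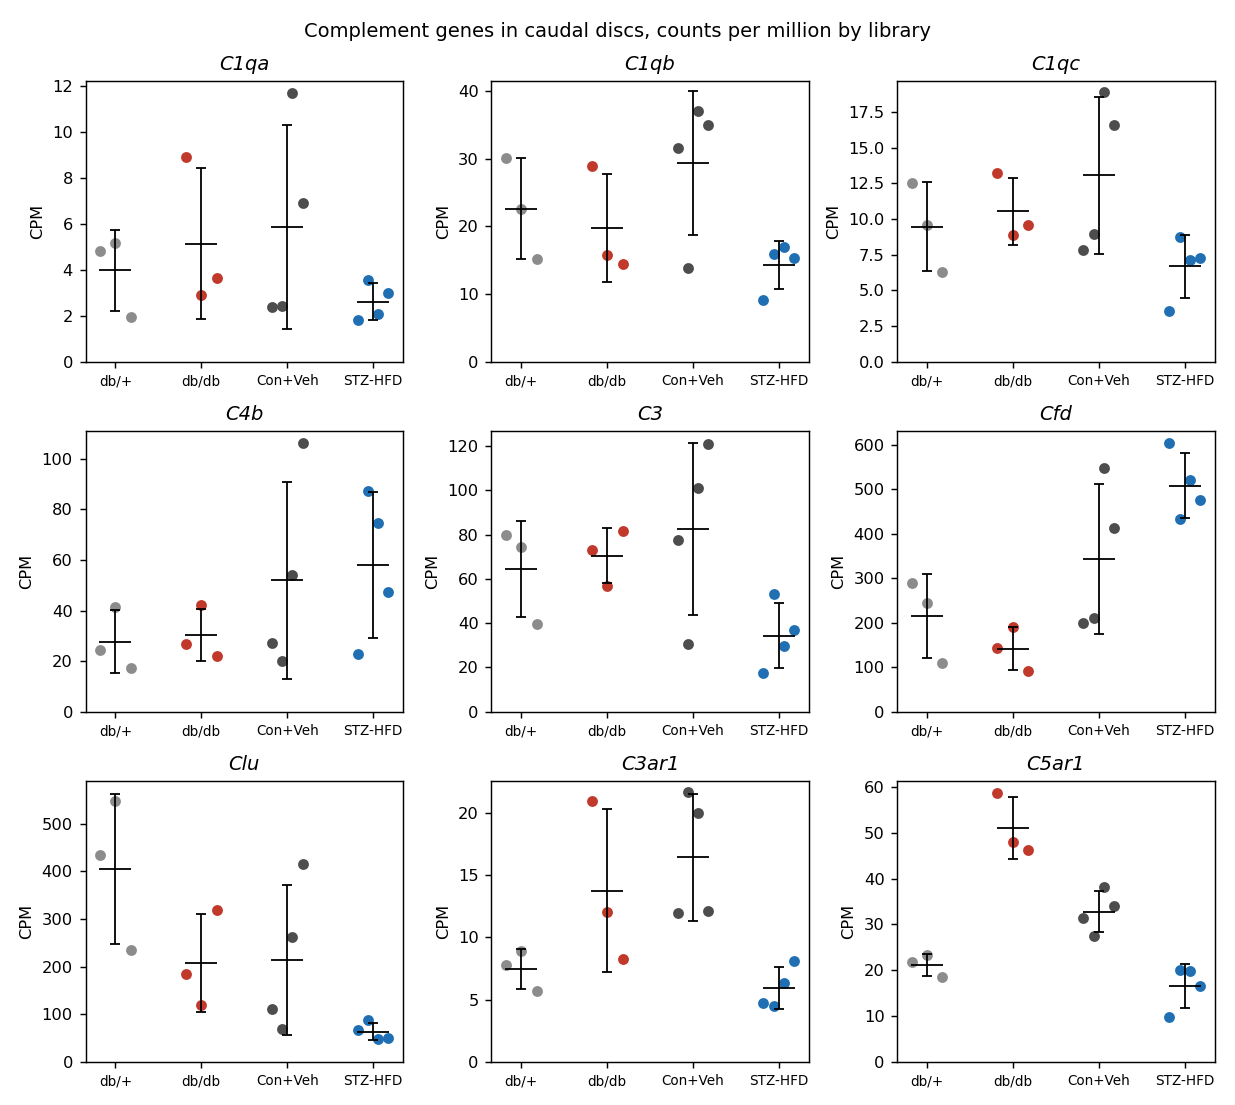
Level of each of the 9 complement genes in CPM (linear axis from 0) for each library, by group, with the group mean as a dash and the SD as a bar. C5ar1 is at 46.3 to 58.8 CPM in db/db and 18.6 to 23.3 CPM in db/+, while the levels of most other genes overlap between groups.

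C3ar1, the receptor for C3a, followed C5ar1 with a wider spread. The db/db libraries stood at 21.0, 12.0 and 8.22 CPM and the db/+ libraries at 7.73, 8.87 and 5.69 CPM. The Con+Veh libraries stood at 12.0, 21.6, 20.0 and 12.1 CPM and the STZ-HFD libraries at 4.73, 4.47, 6.34 and 8.09 CPM. The highest db/db library was far above the other two, and the lowest lay within the db/+ range, whereas the STZ-HFD and Con+Veh libraries did not overlap. C3ar1 was 2.61-fold lower in STZ-HFD (log2 fold change -1.38, SE 0.32, limma adjusted p = 0.0281). That call was lost without Con+Veh 3 (-1.14, limma adjusted p = 0.431), Con+Veh 4 (-1.58, 0.107), STZ-HFD 2 (-1.25, 0.0501), STZ-HFD 3 (-1.42, 0.230) or STZ-HFD 4 (-1.64, 0.0716). In db/db its log2 fold change was 0.77 (SE 0.32, limma adjusted p = 0.183), short of the threshold.

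The difference between the models was called for C3ar1 too, at -2.15 (SE 0.46, limma adjusted p = 0.0300), and it was less secure than that of C5ar1. Without db/db 1 it was -1.81 (adjusted p = 0.0567), without db/+ 1 -2.24 (0.0516), without db/+ 2 -2.34 (0.0607), without Con+Veh 3 -1.91 (0.166), without Con+Veh 4 -2.35 (0.0548), without STZ-HFD 2 -2.02 (0.0533) and without STZ-HFD 3 -2.19 (0.0790), all by limma. The direction was the same each time, and 7 of the 14 fits kept the call. Markers of other cells moved in the same comparison. Of 10 macrophage genes, Lyz2 (-1.998, limma adjusted p = 0.0176) and Mrc1 (-1.94, 0.0308) were called lower in the difference, with a list median of -0.97. Of 6 fibroblast genes, Cd34 and Ly6a were called lower, with a list median of -1.12, and the fibroblast sums were 507 to 656 CPM in db/+, 459 to 1146 in db/db, 332 to 519 in Con+Veh and 253 to 422 in STZ-HFD. The part of these cells and of muscle in the differences of C5ar1, C3ar1 and Serping1 was not tested.

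**Figure D2:**
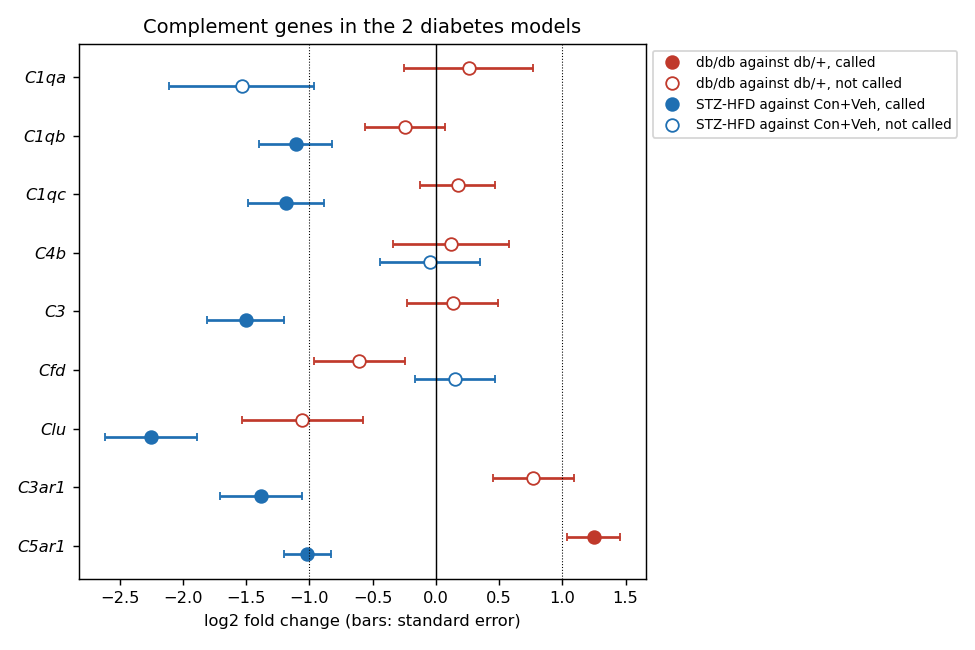
Log2 fold change of each gene (points) with its standard error (bars) in db/db against db/+ (red) and STZ-HFD against Con+Veh (blue), filled where called, with dotted lines at the fold minimum. C5ar1 is the gene called in both models, at 1.25 and -1.02.

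Of the 9 genes, C5ar1 alone was called in db/db, and 6 were called lower in STZ-HFD, namely C1qb, C1qc, C3, Clu, C3ar1 and C5ar1. Over all genes tested, 1.23% were called higher and 0.432% lower in db/db, and 1.30% were called higher and 1.31% lower in STZ-HFD. Because the 9 genes were chosen with earlier results of these data known, setting them beside all genes is a description and not a test. The count of 6 was 0 by edgeR, 0 without library weights, 0 with no filter on low counts and 0 without Con+Veh 3, Con+Veh 4 or STZ-HFD 3, each left out alone. Calls over all genes moved as well. Those lower in STZ-HFD were 221 in the main fit, 4 to 305 over the other settings and 11 to 368 with 1 library left out. The median log2 fold change of the 9 was 0.13 in db/db, beside -0.04 over all genes, and -1.19 in STZ-HFD, beside -0.04. For the difference between the models 2 of 9 were called lower and 0 higher, beside 0.816% and 0.952% of all genes, and the median was -1.36 beside -0.03. Libraries did not overlap for 1 of 9 genes in db/db (higher, beside 14.1% of all genes higher and 11.7% lower) and for 2 of 9 in STZ-HFD (lower, beside 2.77% lower and 1.97% higher). At an unadjusted p under 0.05 by limma, 3 of 9 genes passed in db/db, 7 in STZ-HFD and 5 in the difference, beside 21.1%, 17.9% and 17.3% of all genes.

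The 3 chains of C1q are made together into a single recognition molecule. C1qb had 31.5, 13.8, 37.0 and 35.0 CPM in Con+Veh and 9.04, 15.9, 16.9 and 15.3 CPM in STZ-HFD. C1qc had 7.82, 8.93, 18.9 and 16.6 CPM in Con+Veh and 3.58, 8.73, 7.08 and 7.25 CPM in STZ-HFD. Con+Veh 1, 3 and 4 stood above all STZ-HFD libraries for C1qb, and Con+Veh 3 and Con+Veh 4 stood well above them for C1qc. C1qb was 2.16-fold lower (log2 fold change -1.11, SE 0.29, limma adjusted p = 0.0427) and C1qc 2.28-fold lower (log2 fold change -1.19, SE 0.30, limma adjusted p = 0.0373). Both calls were lost without Con+Veh 3 (C1qb -0.85, limma adjusted p = 0.579, and C1qc -0.81, 0.593), Con+Veh 4 (-0.93, 0.338, and -1.01, 0.290), STZ-HFD 1 (-1.02, 0.0690, and -1.10, 0.0522), STZ-HFD 3 (-1.21, 0.242, and -1.21, 0.276) and STZ-HFD 4 (-1.12, 0.145, and -1.20, 0.138). That of C1qb was also lost, by limma, without db/db 2 (-1.11, adjusted p = 0.0510) or db/+ 2 (-1.11, 0.0518), libraries outside the contrast that share its estimate of the spread.

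C1qa was the scarcest of the 3, at 2.39, 2.43, 11.7 and 6.90 CPM in Con+Veh and 1.81, 3.54, 2.08 and 2.97 CPM in STZ-HFD. Con+Veh 1 and Con+Veh 2 lay inside the STZ-HFD range, with Con+Veh 3 and Con+Veh 4 above it. Its log2 fold change of -1.54 (SE 0.57, limma adjusted p = 0.158) did not pass, and without library weights it was -0.64. In db/db the log2 fold changes were 0.26 (SE 0.51) for C1qa, -0.24 (SE 0.32) for C1qb and 0.17 (SE 0.30) for C1qc, with limma adjusted p of 0.811, 0.697 and 0.783, and the libraries of each gene overlapped between db/db and db/+. In CPM per kilobase of exon, the group means of C1qb were 13.1 to 26.9, those of C1qc 3.45 to 6.76 and those of C1qa 2.50 to 5.63, so messages for the chains were not recovered in equal amounts.

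C3, the protein on which all routes converge, had 77.5, 30.5, 101.1 and 121 CPM in Con+Veh and 17.6, 53.1, 29.9 and 37.0 CPM in STZ-HFD. Con+Veh 2 lay within the STZ-HFD range and the other 3 Con+Veh libraries above it. C3 was 2.84-fold lower in STZ-HFD (log2 fold change -1.50, SE 0.30, limma adjusted p = 0.0153). It was lost without Con+Veh 3 (-1.32, limma adjusted p = 0.337), Con+Veh 4 (-1.19, 0.216), STZ-HFD 3 (-1.41, 0.169) or STZ-HFD 4 (-1.51, 0.0669). In db/db and db/+ the levels of C3 were 56.9 to 81.5 and 39.6 to 79.7 CPM, with a log2 fold change of 0.13 (SE 0.36, limma adjusted p = 0.869). The difference between the models, -1.64 (SE 0.47, limma adjusted p = 0.0818), did not pass, and it did so without Con+Veh 2 (-1.82, limma adjusted p = 0.0324).

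Clu, the chaperone that restrains the terminal complex, had the largest fitted change of the 9 genes in STZ-HFD. Its levels were 111, 69.1, 262 and 416 CPM in Con+Veh and 66.0, 87.1, 48.4 and 50.4 CPM in STZ-HFD. Con+Veh 2 was within the STZ-HFD range. Clu was 4.77-fold lower in STZ-HFD (log2 fold change -2.25, SE 0.36, limma adjusted p = 0.00516). The call was lost without Con+Veh 3 (-2.11, limma adjusted p = 0.153), Con+Veh 4 (-1.73, 0.120) or STZ-HFD 3 (-2.10, 0.0881). In the db cohort Clu stood at 184, 118 and 319 CPM in db/db and 433, 547 and 235 CPM in db/+. The log2 fold change of -1.06 (SE 0.48, limma adjusted p = 0.218) did not pass, db/db 3 being above db/+ 3. In STZ-HFD 7 of the 10 disc matrix genes were called lower, among them Sox9 (log2 fold change -1.53, limma adjusted p = 0.00419), and their part in the lower Clu was not tested.

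C4b, the classical-route protein cleaved by the C1 complex, spread widely within the STZ cohort. It had 27.2, 20.1, 53.9 and 106 CPM in Con+Veh and 22.7, 87.3, 74.5 and 47.3 CPM in STZ-HFD, and the log2 fold change was -0.05 (SE 0.39, limma adjusted p = 0.969). In db/db and db/+ it had 22.1 to 42.1 and 17.3 to 41.4 CPM, with a log2 fold change of 0.12 (SE 0.46, limma adjusted p = 0.911). C4a is a near-identical copy, so reads can be split between the pair and the level of C4b is uncertain.

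Cfd was the most abundant of the 9 per length of exon, with group means of 154 to 552 CPM per kilobase, beside 18.3 to 118 for Clu. It had 198, 210, 548 and 414 CPM in Con+Veh and 605, 433, 521 and 475 CPM in STZ-HFD, and the log2 fold change was 0.15 (SE 0.32, limma adjusted p = 0.846). In db/db it had 144, 190 and 92.4 CPM and in db/+ 290, 245 and 110 CPM, with a log2 fold change of -0.60 (SE 0.36, limma adjusted p = 0.350). The groups overlapped in both cohorts. Sums over 10 adipocyte genes were 1238 to 1440 CPM in db/db, 727 to 3928 in db/+, 2135 to 4709 in Con+Veh and 4022 to 7781 in STZ-HFD, and 4 of the 10 were called higher in db/db and 1 higher in STZ-HFD. Car3 alone made up 58.6% to 96.4% of these sums, and without it they were 133 to 208 CPM in db/+, 328 to 559 in db/db, 267 to 483 in Con+Veh and 428 to 745 in STZ-HFD. Log2 fold changes were positive for 9 of the 10 genes in db/db, Car3 being the exception at -0.66, and for all 10 in STZ-HFD. Their part in the level of Cfd was not tested.

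The macrophage list (Adgre1, Cd68, Csf1r and 7 more genes) was measurable in full. Its summed level was 179 to 235 CPM in db/+, 193 to 283 in db/db, 191 to 362 in Con+Veh and 132 to 248 in STZ-HFD, so the groups of each cohort overlapped. In db/db none of the 10 was called, with a median log2 fold change of -0.01, Lyz2 being at 0.98 (limma adjusted p = 0.0606) and Mrc1 at 1.05 (0.0769). In STZ-HFD Cd68 (log2 fold change -1.63, limma adjusted p = 0.0169) and Lyz2 (-1.02, 0.0216) fell, and the median was -0.82. The neutrophil list held 3 of 10 genes past the filter, none called, with sums of 1.03 to 23.9 CPM, Ly6g being at 0 in all db/db, Con+Veh and STZ-HFD libraries. Median log2 fold changes of those 3 scarce genes were 1.88 in db/db, -1.94 in STZ-HFD and -3.82 in the difference. S100a8 and S100a9 had these signs, and Csf3r the opposite ones (-0.21, 0.10 and 0.31). The hepatocyte list held 3 of 8 genes past the filter, none called, with sums of 4.80 to 15.6 CPM. The part of these cell types in the levels of C1q, C3ar1 and C5ar1 was not tested.

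**Figure D3:**
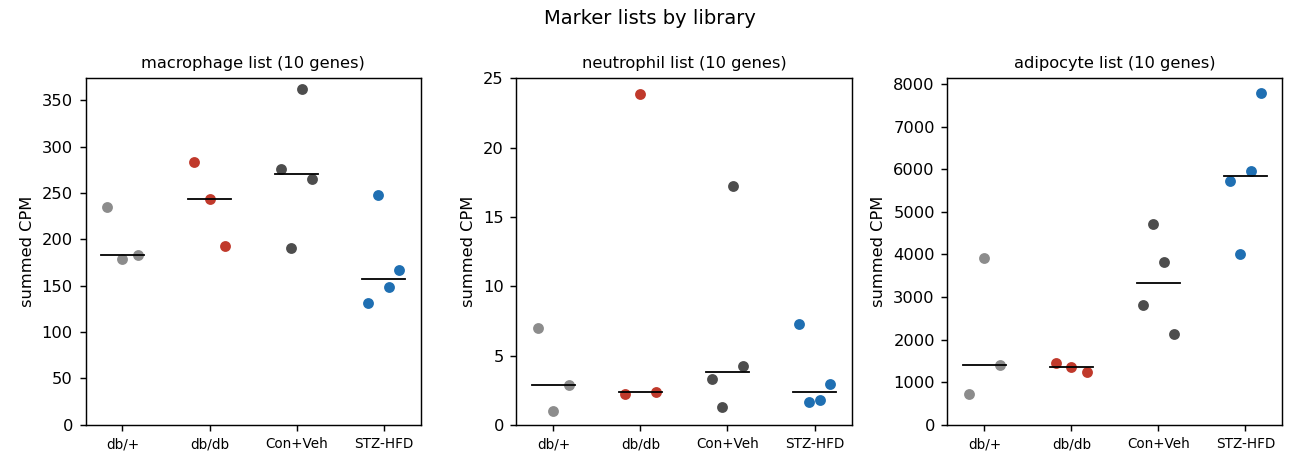
Summed CPM of the macrophage, neutrophil and adipocyte lists in every library, with the group median as a line. Macrophage sums are 132 to 248 CPM in STZ-HFD and 191 to 362 CPM in Con+Veh.

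The rest of the pathway was read from a list of 44 more complement genes, of which 26 passed the filter. None was called in either model by limma or by edgeR and DESeq2, and at an unadjusted p under 0.05 limma passed 8 genes in the db cohort and 6 in the STZ cohort, beside 21.1% and 17.9% of all genes. In db/db 18 of the 26 had a positive log2 fold change, with a median of 0.33, beside 47.3% of all genes positive, and in STZ-HFD 19 of 26 had a negative one, with a median of -0.29, beside 52.8% of all genes negative. Serping1, the inhibitor of the C1 proteases, was the single gene whose change differed between the models (-1.92, SE 0.41, limma adjusted p = 0.0308). Its group means were 50.0 ± 18.9 CPM (SD, n = 3) in db/+, 117 ± 29.3 in db/db (n = 3), 100.4 ± 32.9 in Con+Veh (n = 4) and 75.8 ± 28.9 in STZ-HFD (n = 4). Its log2 fold changes were 1.22 in db/db (limma adjusted p = 0.0555) and -0.70 in STZ-HFD (0.160), neither called. The count of pathway genes called for the difference was 0 without db/db 1, db/db 3, db/+ 1, Con+Veh 3, Con+Veh 4 or STZ-HFD 3, each left out alone, and 2 without Con+Veh 1.

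Among the uncalled genes with the largest values, C7 of the terminal complex had a log2 fold change of 1.46 and Colec10, a lectin-route collectin, of 1.18 in db/db. In STZ-HFD the ficolin Fcna was at -1.91, Itgb2, the shared chain of the complement receptors CR3 and CR4, at -1.46 and the receptor Cr2 at 1.42. For the difference between the models Fcna was at -2.63 (SE 1.07, limma adjusted p = 0.211) and Colec10 at -2.45 (SE 1.37, 0.382). Both were near the floor, at 2 to 56 and 2 to 72 counts per library, with every group mean below 1 CPM. Hc, which encodes C5 and so the source of the C5ar1 ligand, did not pass the filter. Its group means were 0.0116 CPM in db/+, 0.0200 in db/db, 0.109 in Con+Veh and 3.40 in STZ-HFD, where STZ-HFD 1 was at 13.3 CPM. Cfb, the substrate of factor D, did not pass either, at 0 to 12 counts in every library.

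**Figure D4:**
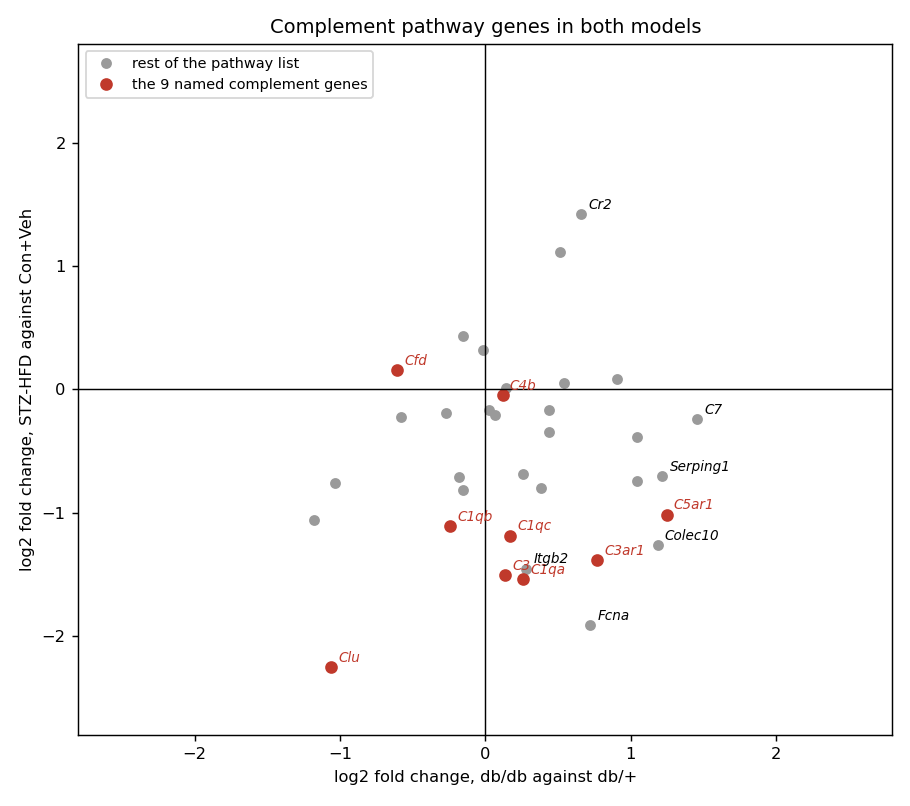
Log2 fold change in db/db against db/+ (x axis) and in STZ-HFD against Con+Veh (y axis) of the 9 complement genes (red) and the 26 tested genes of the rest of the pathway list (grey), with those described in the text named. C5ar1 is at 1.25 and -1.02, and Serping1 at 1.22 and -0.70.

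Genes whose log2 CPM followed each of the 9 most closely over the 14 libraries are given as a description, since the libraries share groups, cohorts and depth. C5ar1 was nearest to Mob1a (Pearson r = 0.918), Galnt15 (0.890) and Ecm2 (0.889). C3ar1 was nearest to Cyp20a1 (0.874), Gm45871 (0.866) and Cxcl13 (0.859). C1qa was nearest to S100a11 (0.853), Rab23 (0.844) and Apod (0.841), C1qb to Hmgn2 (0.915), Gm5837 (0.905) and Tbrg1 (0.877), and C1qc to Ackr3 (0.910), Ly6c1 (0.893) and Twf1 (0.880). Only genes outside the 9 were ranked. C3 was nearest to Thbs2 (0.929), Fndc1 (0.927) and Cyth3 (0.923), C4b to Gpt2 (0.804), Eya2 (0.795) and Atp5d (0.792). Cfd was nearest to Ces1f (0.949), Esrrb (0.898) and Fgfr4 (0.893), and Clu to Cyba (0.959), Ptgfrn (0.958) and Emp2 (0.957).

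The size of each value was compared over other tests, filters and scalings and with each library left out. C5ar1 in db/db stayed between 1.14 and 1.33 and the difference between the models between -2.38 and -2.12, whereas Clu in STZ-HFD ran from -2.50 to -1.53. edgeR's quasi-likelihood test called C5ar1 alone, in the difference between the models (adjusted p = 0.049), and none of the 9 genes in db/db or STZ-HFD, where 2 and 7 had an unadjusted p under 0.05. DESeq2 called C5ar1 in db/db and Clu and C3ar1 in STZ-HFD. Over the other settings, libraries left out apart, the STZ-HFD call held in 8 of 12 for Clu, 7 of 12 for C3, 6 of 13 for C3ar1, 4 of 13 each for C1qb and C1qc and 3 of 13 for C5ar1, whose adjusted p passed in 8 of 13. These counts include the main fit read without its fold minimum, a setting that could not lose a call.

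**Figure D5:**
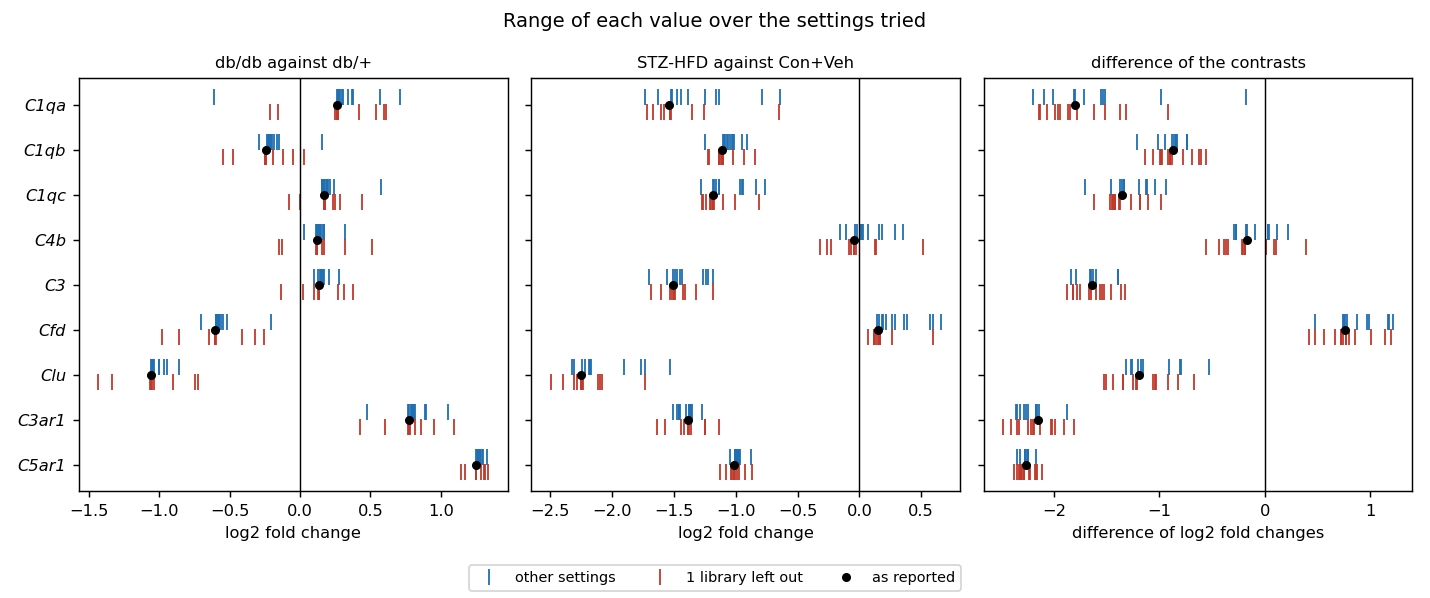
Log2 fold change of each gene in db/db against db/+, in STZ-HFD against Con+Veh and in the difference of the contrasts, as reported (black) and under other settings (blue) or with 1 library left out (red). The difference for C5ar1 stays between -2.38 and -2.12, while C4b crosses 0.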

How the data were processed

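The authors aligned reads to Ensembl release 101 (GRCm38) with STAR and made the deposited gene counts with featureCounts and the deposited estimated counts per transcript with Salmon. The strand setting is not given in the sources used here. The gene table held 55774 lines, of which 287 repeated others exactly and were dropped. Counts were normalized by TMM (edgeR 4.0.16), genes were kept where 3 or more libraries exceeded 1 CPM, and limma 3.58.1 (voomWithQualityWeights, R 4.3.3) was fitted to all 14 libraries, 4 group means in all. The contrasts were db/db minus db/+, STZ-HFD minus Con+Veh, and the difference between them, with calls made where the Benjamini-Hochberg adjusted p was below 0.05 and log2 changes were 1 or larger in size. CPM values use the TMM-scaled library size. Simulated counts with known changes were used to test the code. The 9 genes, the pathway and the marker lists were chosen with earlier results of these data known. Named beyond the 9 were each called pathway gene, the 3 largest uncalled ones per contrast (1 is not reported here) and the 3 genes nearest each member. The settings tried were the quasi-likelihood test of edgeR, DESeq2 1.42.0, other weights, filters, scalings and libraries, and gene totals of the transcript counts, rounded to whole numbers. Rows for the main transcripts of C3 and Clu were not used here, so both were left out of that alternative. Libraries are 1 per mouse. A count of 3 equals 0.0509 to 0.187 CPM by library when divided by the total counts without TMM scaling, a limit for counting error alone. The 18 pairs of libraries within groups differed by more than sampling noise (chi-square per degree of freedom 57.7 to 661). Same-numbered libraries did not deviate together (mean r -0.0911 over 3 pairs and -0.111 over 4), so numbers were not taken as pairs.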

Additional observations from a re-analysis of the deposited data

Results flagged for a closer look

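A set of 3 genes stood out because a test of the difference between the models passed. The log2 fold change in STZ-HFD minus that in db/db was -2.26 for C5ar1, -2.15 for C3ar1 and -1.92 for Serping1, by limma's contrast of the contrasts. C5ar1 was called in opposite directions in the models, whereas C3ar1 was called in STZ-HFD and Serping1 in neither. The STZ-HFD call of C5ar1, at the fold minimum, held in 3 of 13 other settings and 9 of 14 fits with 1 library left out. Those settings include the main fit read without its fold minimum, which could not lose a call. Fits without a db/db or db/+ library, outside this contrast, are among the 14. The call was lost without Con+Veh 3, Con+Veh 4, STZ-HFD 1, STZ-HFD 3 or STZ-HFD 4. The gap-to-range criterion, whose cutoff is not given here, flagged no library in the groups of 4, and groups of 3 were not examined. C1qb was at 9.04 CPM in STZ-HFD 1 beside 15.9, 16.9 and 15.3 CPM in STZ-HFD 2, STZ-HFD 3 and STZ-HFD 4. The lack of a flag therefore does not clear a library. Differences in age, background and tissue makeup between the cohorts cannot be told apart from the models.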

How the results depend on the processing

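Of the 9 genes, limma called 1 higher and 0 lower in db/db, 6 lower in STZ-HFD and 2 lower in the difference. The STZ-HFD count was 0 by edgeR, without quality weights, with no filter and with the replicate block, 1 with transcript counts, 2 by DESeq2, with filterByExpr or without both libraries whose names share an ending, and 3 with each model fitted alone. The db/db count higher was 0 by edgeR or without weights and 2 with the replicate block, which also called 1 lower. The difference count was 0 with the replicate block and 1 by edgeR, without weights, with no filter, with transcript counts or without both shared-ending libraries. With 1 library left out the counts ran from 0 to 1 (db/db higher), 0 to 6 (STZ-HFD lower) and 1 to 3 (difference lower). Over all genes tested, the main fit called 208 higher in db/db, 221 lower in STZ-HFD and 138 lower in the difference. Over the other settings these all-gene counts ran from 0 to 796, 4 to 305 and 2 to 147. With 1 library left out they ran from 12 to 294, 11 to 368 and 3 to 217. For the other 26 pathway genes, in settings partly chosen after seeing the data, db/db called higher 1 with RLE, each model alone, the GC trend removed or both shared-ending libraries out, and 2 with no filter or the replicate block, and lower 1 with no filter or the block. The difference called 0 in place of 1 by edgeR, DESeq2, without weights, with no filter, the block, transcript counts or both libraries out. Leaving out 1 library gave 0 to 1 higher in db/db, 0 to 1 lower in STZ-HFD and 0 to 2 in the difference. Values turned sign for C1qa in db/db with transcript counts (-0.61), C1qb in db/db with the GC trend removed (0.16), and C4b, which in STZ-HFD was 0.16 (edgeR), 0.19 (DESeq2), 0.29 (no weights), 0.018 (filterByExpr), 0.35 (no filter), 0.012 (each model alone), 0.072 (transcript counts) and 0.030 (GC), and in the difference 0.031 (edgeR), 0.036 (DESeq2), 0.12 (no weights), 0.23 (no filter) and 0.045 (transcript counts). With 1 library left out, signs turned for C1qa (-0.21 to 0.61), C1qb (-0.55 to 0.031), C1qc (-0.075 to 0.44), C4b (-0.15 to 0.51) and C3 (-0.14 to 0.38) in db/db, and for C4b in STZ-HFD (-0.32 to 0.52) and in the difference (-0.55 to 0.40). The cause of these changes was not tested. The replicate block left the C5ar1 difference at -2.32 (adjusted p = 0.0659) and called C5ar1 in db/db. Replicate numbers do not mark pairs, so the block serves as a setting. Levels stayed within 1 SD under RLE for all 36 gene and group means. Depth limited C1qa most, at 44 to 565 counts per library. Its transcript estimates, with which its db/db value turned sign, were only 2 to 22 counts per library. They were a median of 4.5% of its gene counts, beside 21.3% (C1qb) to 37.4% (C3ar1) for the other members in that setting.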
